A study of Mus musculus with 2 samples.

Results

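The genes described here are 40 genes of programmed cell death, chosen by name: the Bcl2 family, the caspases, the death receptors with their adaptors, and the proteins that inhibit or relay their signals. Of the 40 genes, 37 had at least 1 probe set that the platform annotation assigns to them alone, and 31 were measured, among 11432 measured genes of the whole array. RNA came from a pool of about 100 Misr2-/- urogenital ridges and a pool of about 100 Misr2+/- ridges, both taken at E14.5 with the gonads removed and hybridised to 1 Affymetrix array each. Misr2-/- ridges lack both copies of Misr2, which encodes the type II receptor of Müllerian inhibiting substance (MIS), and Misr2+/- ridges, the comparison group, also carry 1 deleted copy, so that neither pool was wild type. Both pools had a mixed C57Bl/6 and 129SVEV background, and their genotypes were scored with a YFP reporter. The labels call the Misr2-/- ridges not responsive and the Misr2+/- ridges responsive to MIS, so that the comparison asks which death genes differ with the receptor. Each group was a single pool on a single array. No difference below could therefore be set against a spread between replicates, and none was tested.

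Cells die by the mitochondrial route when BH3-only proteins engage the pro-survival proteins of the Bcl2 family and release the effectors Bax and Bak1, which open the outer mitochondrial membrane. Cytochrome c then joins Apaf1 in the apoptosome, where caspase 9 is activated, while the inhibitor of apoptosis proteins hold caspases back. In the receptor route, ligands of the tumour necrosis factor family cluster death receptors, whose adaptor Fadd recruits caspase 8. MIS, the testis hormone also called AMH, makes the Müllerian duct regress in male embryos through its receptor in the mesenchyme around the duct, and cell death is a known part of that regression.

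The Misr2-/- array was brighter, with a median signal of 139.4 against 116.5 on the Misr2+/- array, a shift of 0.26 on the log2 scale. Differences are log2 values of the Misr2-/- signal minus the Misr2+/- signal relative to this shift, so that a gene whose signals differ by exactly the shift stands at 0. As deposited, each difference would be 0.26 higher, and relative to the 18 probe sets of the hybridisation spikes each would be 0.40 lower. The array median served as a floor: a probe set was measured when at least 1 of its signals reached it. A gene's value is that of its brightest measured probe set unless stated otherwise. Where a gene had several probe sets, their spread (SD) was 0.23 over 5264 genes, which leaves out any variation between pools. Amhr2, the gene name of Misr2, followed its label, with signals of 10.2 in the Misr2-/- pool and 1549.6 in the Misr2+/- pool, although where its probes lie relative to the deletion was not examined. Tissue markers of ridge mesenchyme and coelomic epithelium were measured for 11 of 12 genes, with Gata4 under the floor, and 12 of the 14 duct epithelium markers had a probe set, all of them measured.

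None of the 31 measured death genes differed 1.5-fold between the pools in its brightest probe set. Over all measured genes 2.08% were at least 1.5-fold higher and 0.883% at least 1.5-fold lower in the Misr2-/- pool, together 2.97%, so that 0 of 31 is near that background. With a lower threshold of 0.32 on the log2 scale, 4 death genes (12.9%) were higher, namely Pmaip1, Mcl1, Cycs and Bok, beside 10.3% of all genes. Bcl2l11 was the 1 death gene (3.23%) lower by as much, beside 4.31% of all genes and 14.7% in either direction. That value rests on its brightest probe set, whose suffix, _a_at, marks probe sets shared among transcripts of the same gene. Without any probe sets shared among transcripts or genes, Bcl2l11 stood at -0.04. The median log2 difference of the 31 genes was 0.08, with 19 above and 12 below 0. Over all 11432 measured genes the median was 0.04, with 6598 above and 4834 below 0. Both medians turn negative against the spikes, at -0.33 and -0.37. The direction of most of these genes depended on the scale. Mcl1 and Pmaip1 were higher and Bcl2l11 and Casp8 lower in the Misr2-/- pool relative to the medians, as deposited and against the spikes alike, while the other 27 differed in sign between these scales. For Mcl1 this holds for 1 of its 6 probe sets: against the spikes the brightest stood at 0.05, the other 5 lay below 0, and the median of the 6 was -0.31. As deposited, the second brightest probe set of Bcl2l11 was higher, at 1302.5 in the Misr2-/- pool and 1121.7 in the Misr2+/- pool. So was a dim one, at 186.8 in the Misr2-/- pool and 133.3 in the Misr2+/- pool, while its other probe sets were lower. In tissue pools of this kind, fewer cells of a type and less RNA per cell cannot be told apart.

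**Figure D1:**
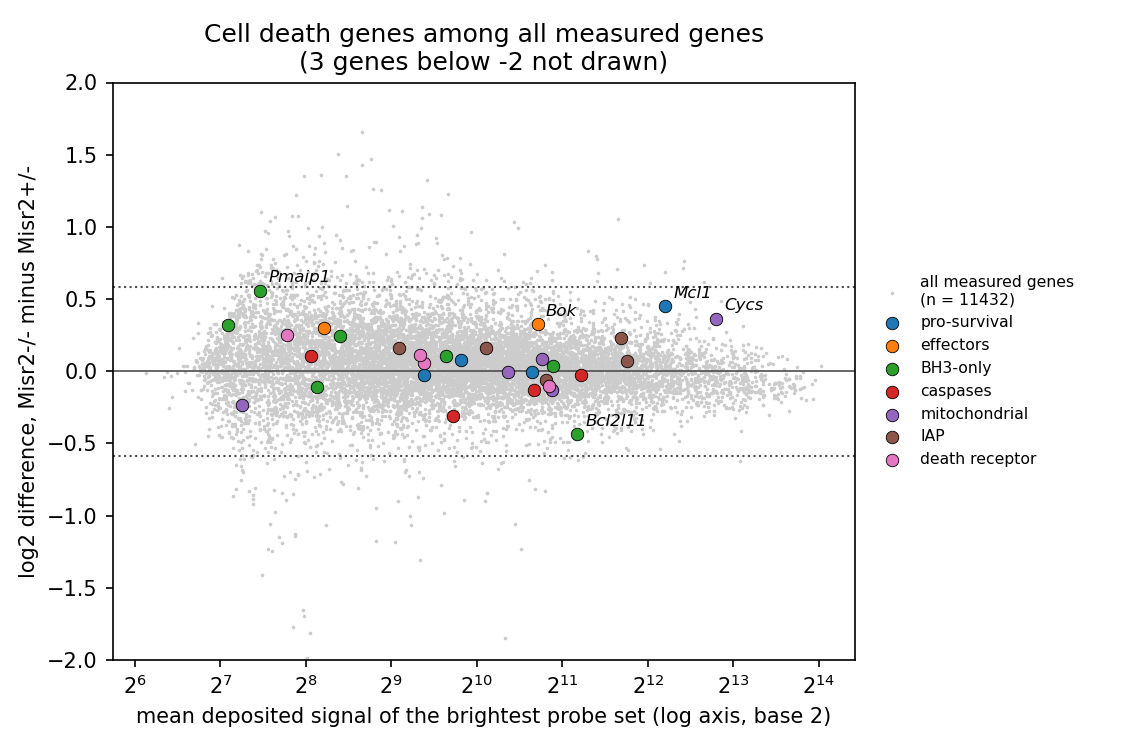
The log2 difference (Misr2-/- minus Misr2+/-, relative to the array medians) of each measured gene is plotted against its mean deposited signal on a log axis, with all 11432 genes in grey and the 31 death genes coloured by class. All coloured points lie between the dotted 1.5-fold lines, from -0.44 for Bcl2l11 to 0.56 for Pmaip1, and all points would move up by 0.26 as deposited and down by 0.40 against the spikes.

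The pro-survival Bcl2 proteins, which hold the effectors in check, were all measured, and 1 of the 4 genes stood apart from 0. Mcl1, a short-lived survival factor, had signals of 5840.5 in the Misr2-/- pool and 3571.8 in the Misr2+/- pool, a difference of 0.45 or 1.37-fold. Its other 5 probe sets, which report on the same gene, lay between -0.11 and 0.21, and the median of all 6 was 0.09. Among the 6, the brightest alone differed by more than the probe set spread. Over all measured genes, 26.3% differed by more than that spread in their brightest probe set. Bcl2, the founding member of the family, had signals of 1748.7 in the Misr2-/- pool and 1464.6 in the Misr2+/- pool, a difference of -0.00. Bcl2l1, which encodes Bcl-xL, stood at 0.08 with signals of 1001.8 in the Misr2-/- pool and 793.2 in the Misr2+/- pool, and Bcl2l2, which encodes Bcl-w, at -0.02. The class median was 0.04, which turns to -0.37 against the spikes.

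The effectors that open the mitochondrial membrane were represented by Bak1 and Bok, since Bax had no probe set named for it alone and was not analysed here. Bok, a relative of Bax and Bak1, had signals of 2013.2 in the Misr2-/- pool and 1340.3 in the Misr2+/- pool, a difference of 0.33 or 1.26-fold. Bak1 had 352.8 in the Misr2-/- pool and 239.7 in the Misr2+/- pool, a difference of 0.30. Both were thus higher in the Misr2-/- pool relative to the medians and as deposited, and both lay below 0 against the spikes. Each rests on 1 measured probe set, the other probe set of Bak1 being under the floor in both pools.

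The BH3-only genes held both the highest and the lowest value of the 31 brightest probe sets. These genes encode the sensors that trigger the mitochondrial route in answer to stress or to loss of survival factors. Pmaip1, which encodes Noxa, a partner of Mcl1, had signals of 224.7 in the Misr2-/- pool and 127.6 in the Misr2+/- pool, a difference of 0.56 or 1.47-fold, and ranked 282 of 11432 genes from the top. Its 1 probe set was dim, the Misr2+/- signal lying just above that array's floor of 116.5. Bcl2l11, which encodes Bim, a BH3-only protein that binds all pro-survival members, had signals of 2171.9 in the Misr2-/- pool and 2455.4 in the Misr2+/- pool, a difference of -0.44 or 1.35-fold lower. By brightest probe sets it was 1 of 2 death genes, with Casp8, whose deposited signal was itself lower in the Misr2-/- pool. Of its 5 measured probe sets 4 were below 0, and they ran from -0.59 to 0.23 with a median of -0.31.

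Of the other BH3-only genes, Bik had a value known only as a bound. Bik, a BH3-only protein of the endoplasmic reticulum and, like Amhr2, encoded on chromosome 15, had signals of 173.7 in the Misr2-/- pool and 98.2 in the Misr2+/- pool. The second signal was under the floor, so that the gene passed the filter through the Misr2-/- pool alone and its log2 difference of 0.32 is a lower bound. With the floor at percentile 40 it was 0.56. Bid, which links caspase 8 to mitochondria, stood at 0.24 (396.2 in the Misr2-/- pool, 280.2 in the Misr2+/- pool) and Bad, which is controlled by growth factor signalling, at 0.10 with a second probe set at 0.30. Bbc3, which encodes Puma, a p53 target, stood at -0.11. Bmf, which is released from the cytoskeleton, stood at 0.04, with signals of 2096 in the Misr2-/- pool and 1708.5 in the Misr2+/- pool, but its second measured probe set stood at -0.59, and the median of both at -0.28. Hrk, best known from neurons, did not reach the floor in either pool, at 110.4 in the Misr2-/- and 69.2 in the Misr2+/- pool. The class had 5 genes above and 2 below 0 and a median of 0.10, which turns to -0.30 against the spikes.

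Mcl1 and Bcl2l11, whose proteins bind each other, were set side by side after their values were seen. Their log2 differences stood 0.89 apart in the brightest probe sets, 0.49 apart without shared probe sets and 0.40 apart by the medians of their probe sets. Between classes, the BH3-only median exceeded the pro-survival median by 0.07 and the effector median, which rests on Bak1 and Bok alone, exceeded it by 0.28.

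**Figure D2:**
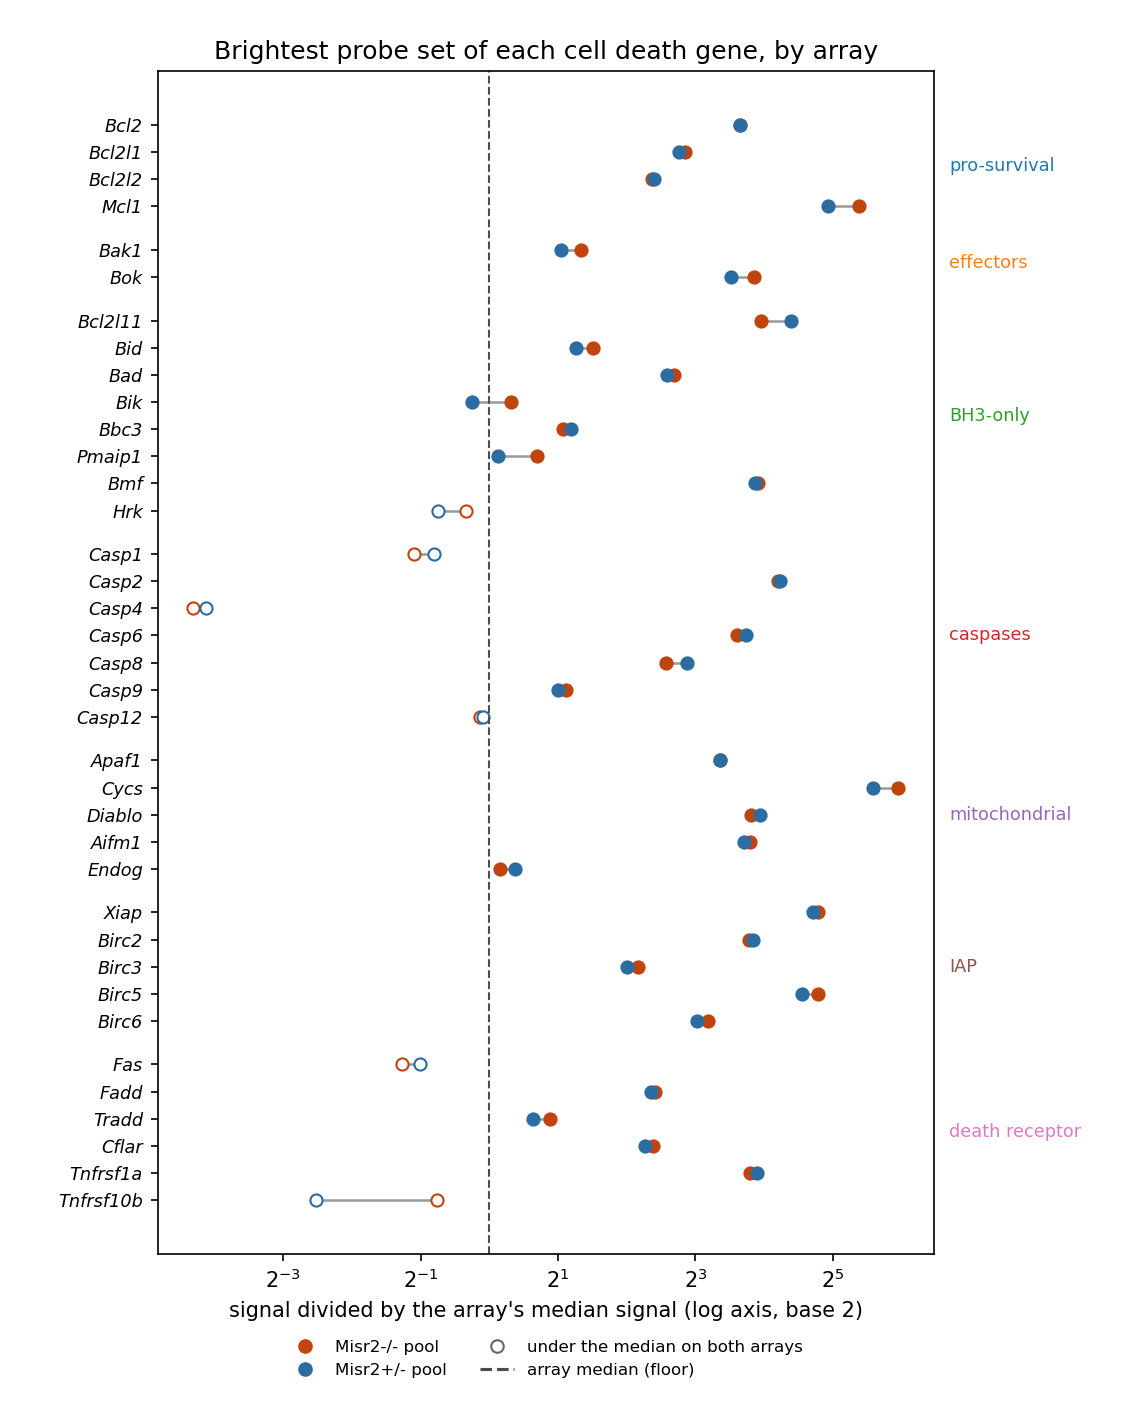
The signal of the brightest measured probe set of each of 37 genes (the brightest of all where none was measured), divided by its array's median, is shown on a log axis for the Misr2-/- pool and the Misr2+/- pool, grouped by class. Positions can be compared within a row but not between rows, since probe sets differ in brightness; Hrk, Casp1, Casp4, Casp12, Fas and Tnfrsf10b lie left of the dashed floor in both pools, and Bcl2l11 and Mcl1 are the bright genes with the widest gaps, in opposite directions.

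Among the caspases, the proteases that carry out cell death, 4 of 7 were measured. Casp8, the initiator of the receptor route, had signals of 829 in the Misr2-/- pool and 857.6 in the Misr2+/- pool, a difference of -0.31 or 1.24-fold lower on its 1 probe set. Casp9, the initiator of the mitochondrial route, stood at 0.11, with 300.9 in the Misr2-/- pool and 233.5 in the Misr2+/- pool. Casp2, an initiator linked to DNA damage, stood at -0.03, with 2572.1 in the Misr2-/- pool and 2187.3 in the Misr2+/- pool. Casp6, an executioner, had 1698.4 in the Misr2-/- pool and 1552.7 in the Misr2+/- pool, a difference of -0.13. Of these, only Casp8 differed by more than the spread between probe sets. So did 10 of the 31 death genes (32.3%), beside 26.3% of all measured genes. Casp1 and Casp4, the inflammatory caspases, and Casp12, tied to the endoplasmic reticulum, were under the floor in both pools. Their brightest signals were 64.9, 7 and 127.2 in the Misr2-/- pool and 66.4, 6.7 and 109.9 in the Misr2+/- pool. The class median of -0.08 turns positive as deposited, at 0.18.

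The factors released from mitochondria and the apoptosome had a class median of -0.00. Cycs, which encodes cytochrome c, was the exception, with signals of 8659.8 in the Misr2-/- pool and 5623.4 in the Misr2+/- pool, a difference of 0.36 or 1.29-fold. All 3 of its measured probe sets lay above 0, from 0.12 to 0.36, and all 3 lie below 0 against the spikes. Apaf1, the scaffold of the apoptosome, stood at -0.00, with 1432.7 in the Misr2-/- pool and 1200.5 in the Misr2+/- pool, and its second probe set at -0.33. Diablo, an antagonist of the inhibitors of apoptosis, stood at -0.13 and Aifm1, a mitochondrial flavoprotein encoded on the X chromosome, at 0.08. Endog, a mitochondrial nuclease, was dim, with signals of 154.6 in the Misr2-/- pool and 151.6 in the Misr2+/- pool, a difference of -0.23 that turns positive as deposited.

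The inhibitor of apoptosis genes were all measured, and 4 of 5 lay above 0 relative to the medians, although all 5 lie below 0 against the spikes. Birc5, which encodes survivin, a protein of the mitotic chromosomal passenger complex, had signals of 3853.2 in the Misr2-/- pool and 2740.9 in the Misr2+/- pool, a difference of 0.23. The cell division markers listed beside it, a class to which survivin belongs by function, had a median of 0.07 over 11 genes, and their part in the Birc5 value was not tested. Xiap, the most direct caspase inhibitor of the family and X-linked, stood at 0.07, with 3847.2 in the Misr2-/- pool and 3059.4 in the Misr2+/- pool, while its second measured probe set stood at -0.32. Birc6, a very large ubiquitin ligase, and Birc3 both stood at 0.16, and Birc2, like Birc3 a ubiquitin ligase of tumour necrosis factor signalling, at -0.06. The class median was 0.16, and the caspase median lay 0.24 below it.

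The death receptors and their adaptors were measured for 4 of 7 genes. Tnfrsf1a, the first tumour necrosis factor receptor, had signals of 1934.9 in the Misr2-/- pool and 1735.9 in the Misr2+/- pool, a difference of -0.10. Fas had signals of 57.6 in the Misr2-/- pool and 58.1 in the Misr2+/- pool, and Tnfrsf10b, the mouse receptor for TRAIL, had at most 82.2 in the Misr2-/- pool and 29.5 in the Misr2+/- pool. Both receptors thus lay under the floor in both pools. Fadd, the adaptor of Fas, stood at 0.06 and Tradd, the adaptor of Tnfrsf1a, at 0.25, with a second, dimmer probe set of Tradd at -0.26. Cflar, which encodes FLIP, a catalytically inactive relative of caspase 8, stood at 0.11, with 728.6 in the Misr2-/- pool and 562.6 in the Misr2+/- pool. Ripk1 and Trp53 had no probe set named for them alone and were not analysed here.

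Probe sets of the same gene often gave different answers. The 37 genes had 95 probe sets, of which 59 were measured, 31 above and 28 below 0, with a median of 0.03. Of 14 genes with several measured probe sets, 9 (64.3%) had them on both sides of 0, beside 55.3% of all such genes. In 4 of the 14 (28.6%) they spanned at least a factor of 1.5, beside 17.2% of all such genes, and these were Bcl2, Bcl2l11, Bmf and Cflar.

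Each of these 4 genes held 1 probe set that was at least 1.5-fold lower in the Misr2-/- pool, and no measured probe set of a death gene was 1.5-fold higher. Over all measured probe sets 1.97% were at least 1.5-fold lower and 2.47% at least 1.5-fold higher, together 4.44%, and 4 of 59 amounts to 6.78%. For Cflar, the second brightest probe set had signals of 356.2 in the Misr2-/- pool and 473.1 in the Misr2+/- pool, a difference of -0.67, against 0.11 for the brightest one and -0.23 for the third. It was well above the floor in both pools. For Bcl2l11, a dim probe set had 154.8 in the Misr2-/- pool and 194.7 in the Misr2+/- pool, a difference of -0.59. The dimmest probe set of Bcl2 had signals of 128.3 in the Misr2-/- pool and 190.5 in the Misr2+/- pool, and the dimmer measured one of Bmf had 118.8 in the Misr2-/- pool and 175.9 in the Misr2+/- pool. In both of these the Misr2-/- signal was under its floor, so that each passed the filter through the Misr2+/- pool alone and the differences of -0.71 and -0.59 are bounds. The other 4 measured probe sets of Bcl2, all brighter, lay between -0.05 and 0.05. Which transcript forms these probe sets detect was not examined.

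**Figure D3:**
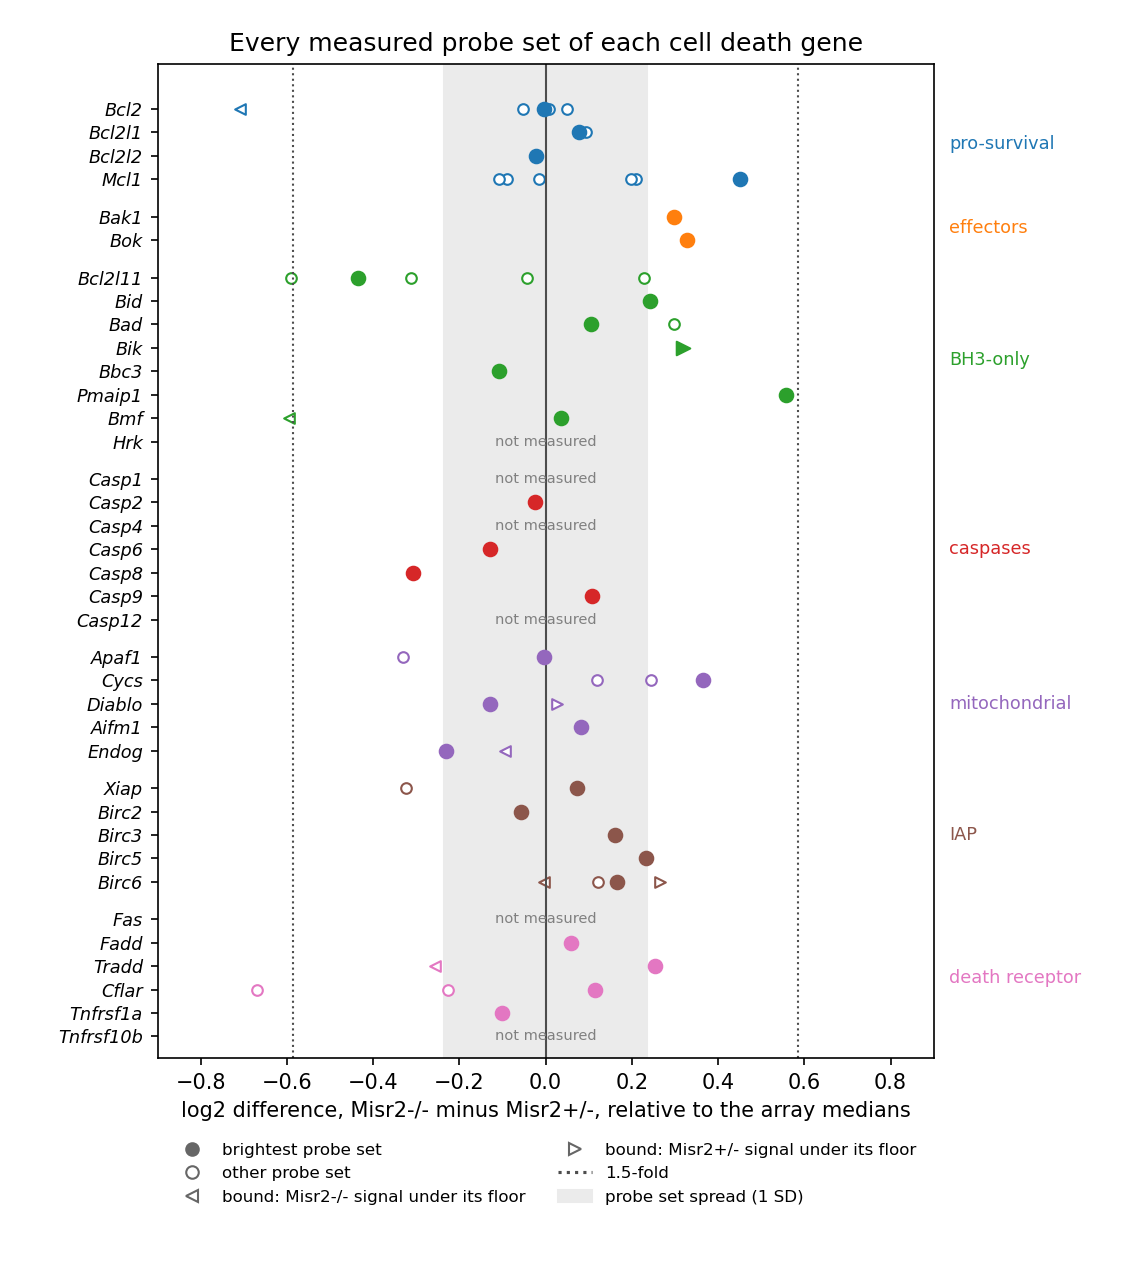
The log2 difference (Misr2-/- minus Misr2+/-, relative to the array medians) of every measured probe set is shown by gene, with the brightest filled, the others open, and triangles where 1 signal lay under its floor and the value is a bound. The grey band spans the probe set spread of 0.23 on either side of 0, and the 4 probe sets at or beyond the dotted 1.5-fold lines belong to Bcl2, Bcl2l11, Bmf and Cflar; all points would move up by 0.26 as deposited and down by 0.40 against the spikes.

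Other genes around the same machinery had a median near that of all genes. Over 108 measured genes of 5 further lists the median was 0.02 (-0.39 against the spikes), with 57 above and 51 below 0, 5 genes (4.63%) at least 1.5-fold higher and 0 at least 1.5-fold lower. Over all genes these shares were 2.08% and 0.883%. Of the 5 higher genes, Atf3 and Megf10 passed the filter through the Misr2-/- pool alone, which fixes their side of 0. The higher share thus rests in part on the filter. The 31 measured genes of other apoptosis machinery had a median of 0.01 and no gene past 1.5-fold. Pidd1, a scaffold that activates caspase 2, stood highest at 0.36, followed by Aven, an inhibitor of apoptosome activation, at 0.35, and Bcl2l13, a mitochondrial Bcl2 relative, was lowest at -0.32.

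The 22 measured death ligands, other receptors and adaptors had a median of 0.02 and spread more widely. Tnfrsf19, a receptor of the tumour necrosis factor family, had signals of 1970.8 in the Misr2-/- pool and 1083.6 in the Misr2+/- pool, 1.52-fold higher, although its 3 probe sets ran from -0.10 to 0.60. Faim, which protects against death by Fas, stood at 0.54 with 1158.4 in the Misr2-/- pool and 665.5 in the Misr2+/- pool. Traf4, an adaptor, stood at 0.52. The netrin receptor Unc5b, which can trigger death when its ligand is absent, had 941.6 in the Misr2-/- pool and 1152.4 in the Misr2+/- pool, a difference of -0.55, and its relative Unc5c stood at -0.45 with a second probe set at -0.78. The ligand genes Tnf, Fasl and Tnfsf10, all with probe sets of their own, were under the floor in both pools.

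Target genes of p53 had a median of 0.02 over 22 measured genes, with 12 above and 10 below 0. Perp, a membrane protein that p53 and its relative p63 induce, had signals of 266 in the Misr2-/- pool and 132.3 in the Misr2+/- pool, 1.68-fold higher on 1 probe set. Its Misr2+/- signal lay just above that array's floor of 116.5. Perp is also a component of desmosomes in epithelia, and the duct epithelium markers were higher in the same pool, with 10 of 12 above 0 and a median of 0.24 (-0.17 against the spikes). Their part in the Perp value was not tested. Sesn1, a stress-induced regulator of growth signalling, and Gadd45a, a growth arrest gene, both stood at 0.49, with probe sets of Sesn1 between -0.14 and 0.49. Gadd45a was dim, with a Misr2+/- signal of 131.9, just above the floor. Of the 10 genes below 0, Trp53inp1 was the lowest at -0.35 on its 1 measured probe set. The best known p53 targets, Cdkn1a, which encodes the cell cycle inhibitor p21, and Mdm2, the ubiquitin ligase of p53, stood at 0.09 and 0.25, with a second measured probe set of Mdm2 at -0.57.

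Stress genes of the endoplasmic reticulum and the integrated stress response had a median of -0.04 (0.22 as deposited) over 15 measured genes. Of these, 2 (13.3%) were at least 1.5-fold higher, beside 2.08% of all genes, and 1 of the 2, Atf3, passed the filter through the Misr2-/- pool alone. Of the 14 above the floor in both pools, 5 lay above and 9 below 0. Ppp1r15a, which encodes the phosphatase subunit Gadd34, had signals of 449.9 in the Misr2-/- pool and 237.1 in the Misr2+/- pool, 1.59-fold higher. Atf3, a stress-induced transcription factor, had 221.9 in the Misr2-/- pool and 108.6 in the Misr2+/- pool, under the floor, and was at least 1.59-fold higher. Ddit3, which encodes the death-linked factor Chop, stood at -0.01, and Hspa5, the chaperone BiP, at -0.17. The 3 probe sets of Hspa5 ran from -0.17 to 0.35. Genes for the engulfment of dying cells had a median of 0.03 over 18 measured genes. Megf10, an engulfment receptor, had 215.5 in the Misr2-/- pool and 104.5 in the Misr2+/- pool, under the floor, and was at least 1.55-fold higher. Tyro3, a receptor tyrosine kinase for bridging ligands of dead cells, stood at 0.52 with a second probe set at -0.26. Of the 7 engulfment genes below 0, Abca1 was the lowest at -0.39, with its 3 probe sets from -0.39 to -0.05.

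**Figure D4:**
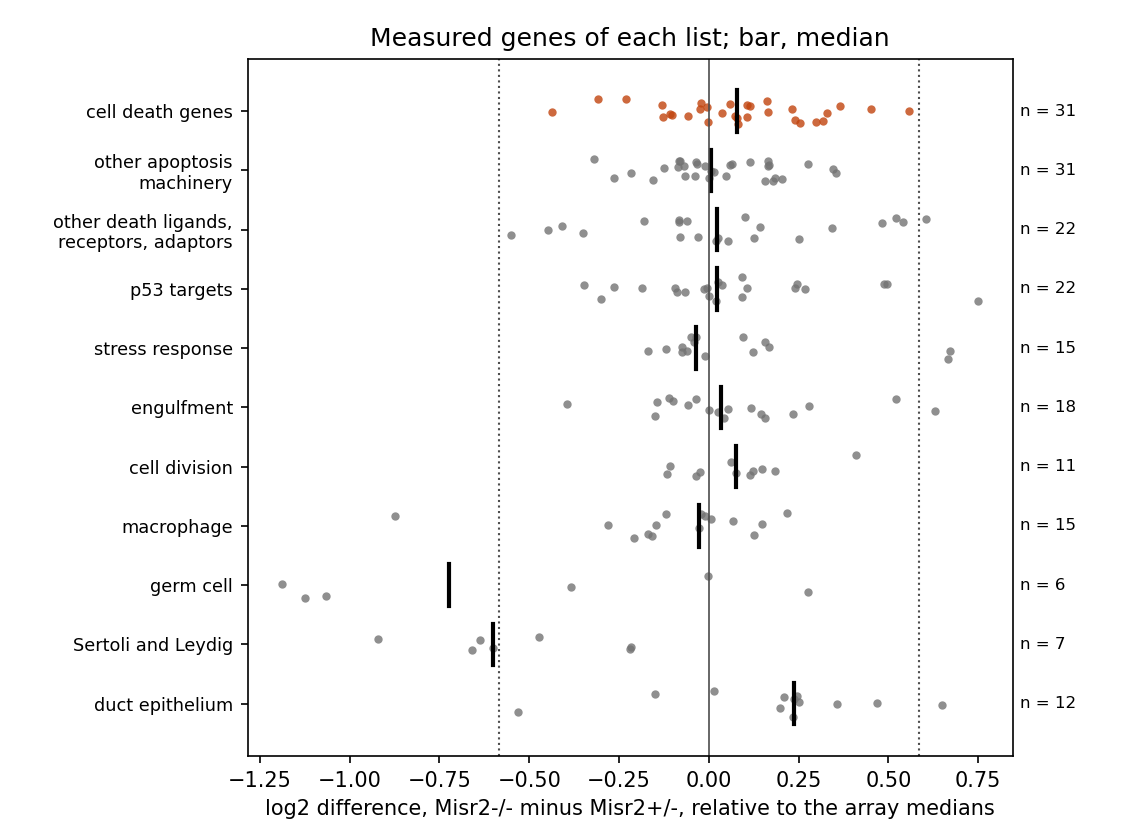
Each point is the log2 difference (Misr2-/- minus Misr2+/-, relative to the array medians) of 1 measured gene, by list, with the median as a bar, the dotted lines at 1.5-fold and small vertical offsets for legibility only. The 31 death genes, in red, have a median of 0.08 (-0.33 against the spikes), close to the other apoptosis lists. Germ cell and Sertoli and Leydig cell markers have medians of -0.72 and -0.60, which stay below 0 as deposited and against the spikes. Of these markers, 2 of 6 and 3 of 7 passed the filter through the Misr2+/- pool alone, which fixes their side of 0. The ridge mesenchyme list, which holds Amhr2, is not drawn.

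Markers of other cell types differed between the pools as well. The median of the 6 measured germ cell markers was -0.72. Of these, 2 passed the filter through the Misr2+/- pool alone, which fixes their side of 0, and of the 4 above the floor in both pools 3 were below 0. The summed signal of the list's brightest probe sets was 8.41 times the array median in the Misr2-/- pool against 13.8 times in the Misr2+/- pool. The 7 measured Sertoli and Leydig cell markers had a median of -0.60. Of these, 3 passed the filter through the Misr2+/- pool alone, and the 4 above the floor in both pools lay below 0. The list had sums of 9.99 times the array median in the Misr2-/- pool and 14.8 times in the Misr2+/- pool. Amh, the defining product of fetal Sertoli cells, was at 5.5 in the Misr2-/- pool and 19 in the Misr2+/- pool, under both floors. The ridge mesenchyme and coelomic epithelium markers, which include Amhr2, had a median of -0.22 (0.04 as deposited, -0.62 against the spikes), with 3 of the 11 measured above and 8 below 0. Among them Osr1, a transcription factor of the early ridge, had signals of 165.4 in the Misr2-/- pool and 304.4 in the Misr2+/- pool, while Hoxa11, a patterning gene, had 1044 in the Misr2-/- pool and 499.8 in the Misr2+/- pool. The part of these lists in the lower Bcl2l11 and Casp8 values was not tested. All 15 macrophage markers with a probe set were measured, although Casp1 and Casp4 were not. They had a median of -0.03 (0.23 as deposited) and sums of 96.7 times the array median in the Misr2-/- pool and 103 times in the Misr2+/- pool.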

How the data were processed

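The authors deposited a linear intensity for each probe set on both arrays; the submitters' processing notes name GCOS and MAS5 without version or role. A second deposited table lists 739 probe sets with both intensities and a signed fold, used as a score. No source used here gives the scaling, detection filter or genome build. Of 45101 probe sets, 64 controls were left out of gene values. Of the others, 34945 had 1 gene symbol in the platform annotation, 932 several and 9160 none, and the last 2 kinds named no gene. All 37 death genes with probe sets had an entry in RefSeq (GRCm38.p6), used for chromosomes only.

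Signals under an array's median were set to it, so that differences against them are bounds. Genes took their brightest measured probe set. The procedure was tested on simulated arrays with 200 bright probe sets changed by a larger log2 difference than any death gene showed here. That simulation does not bear on smaller differences or on signals near the floor. Python 3.11.15, pandas 2.3.3, numpy 2.4.6, statsmodels 0.14.6 and matplotlib 3.10.9 were used. The members and lists were chosen with earlier results of these data known. All 40 death genes are named. Of the 5 further lists around the same machinery, genes past 1.5-fold and up to 4 with the largest differences are named. Unc5c, Cdkn1a, Mdm2, Ddit3, Tnf, Fasl and Tnfsf10 were added after their values were seen. Markers of cell types, sex and cell division were read as lists, and only some of them are named, whether past 1.5-fold or not. Alternatives were other scalings, floors, probe set choices and thresholds. With 1 array per group the arrays' number limits the precision, and no p-values were computed.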

Additional observations from a re-analysis of the deposited data

How the results depend on the processing

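The count of 0 death genes at least 1.5-fold higher and 0 at least 1.5-fold lower was the same after scaling to the 75th percentile, quantile normalization, loess, the authors' constants, a floor set at percentile 40, 60 or 75 and a median over probe sets per gene. With the floor at percentile 40, 60 and 75, 35, 28 and 22 death genes were measured. Pmaip1, the highest of the 31, was no longer measured at percentile 60 or 75. No gene could pass 2-fold with none past 1.5-fold. As deposited, 4 genes (Mcl1, Bok, Pmaip1 and Cycs) were 1.5-fold higher and 0 lower, and the median of the 31 genes was 0.34, beside 0.29 over all genes, of which 10.1% were then higher and 0.341% lower. Against the hybridisation spikes 3 genes (Bcl2l11, Casp8 and Endog) were 1.5-fold lower and 0 higher, and the median was -0.33, beside 12.6% of all genes lower and 0.254% higher. Without a floor and with a pseudocount of 16, 1 of 37 genes was higher, beside 6.24% of all genes. It was Tnfrsf10b, which lies under the floor. Leaving out probe sets whose suffix (_a_at, _s_at or _x_at) marks sharing among transcripts or among genes, 26 genes were left. Of these 1, Bmf, was lower, since only its dim probe set remained, beside 0.966% of all genes. At the lower threshold of 0.32 (log2) 4 genes were higher and 1 lower, beside 10.3% and 4.31% of all genes. With a median over probe sets per gene, the median over the 31 genes was -0.00, and without shared probe sets -0.00, so that its sign against 0 rests on the choice of probe set. The values of single genes moved by more than the probe set spread for all 31 as deposited and against the spikes, for 4 by the median of probe sets (Mcl1 0.09, Bmf -0.28, Tradd -0.00 and Cflar -0.23), for 3 without shared probe sets (Bcl2l11 -0.04, Bmf -0.59 and Tradd -0.26) and for 1, Bik at 0.56, with the floor at percentile 40. No paired analysis was possible because each group had 1 array. Signal over background limits Pmaip1, Bik and Endog, whose signals lay near the floor, and likewise Perp and Gadd45a among the p53 targets.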

Other observations

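Of the 45101 probe sets on the array, 739 are in the authors' deposited table, and of the 95 probe sets of these genes 4 are. How many of all 739 were under the floor in both pools was not counted, but these 4 all were. They are probe sets of Birc6, with a signed fold of 2.83 and deposited signals of 103.3 in the Misr2-/- pool and 30.2 in the Misr2+/- pool, of Casp6, with a signed fold of -2.07, and of Xiap, with signed folds of -2.003 and -2.27 in the authors' deposited table. The brighter probe sets of the same genes stood at 0.16, -0.13 and 0.07.

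The X-linked genes Xiap and Aifm1 were read beside markers of sex, which the labels used here do not give. The Y-linked genes Uty, Kdm5d and Eif2s3y were measured in both pools, with signals of 855.9, 710.5 and 1541.9 in the Misr2-/- pool and 548.2, 526.3 and 1199.7 in the Misr2+/- pool. All 3 probe sets of Xist, the transcript of the inactive X chromosome, were under the floor in both pools, the brightest at 121.4 in the Misr2-/- pool and 61.5 in the Misr2+/- pool.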
